A study of Mus musculus with 3 samples.

Results

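Collagens are the structural proteins that give the cornea its shape and strength, and 42 of the 16787 protein coding genes in the deposited mouse table belong to the family. They were chosen by symbol, as protein coding rows named Col, a type number, the letter a and a chain number. RNA was sequenced from mouse cornea, the clear front of the eye, in a study of the α7 nicotinic acetylcholine receptor in dry eye disease. One library came from mice given eyedrops of PNU-282987, an agonist of that receptor, 3 times a day. Another came from mice whose lacrimal gland, the main source of tears, had been excised, and the last from sham mice that were cut in the same place with the glands left alone. The labels state neither strain, age nor time after surgery. They do not say if the glands of the eyedrop mice were intact, nor how many corneas went into a library.

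A collagen molecule is a rope of 3 alpha chains, which may be copies of 1 chain or products of different genes, so partner chains have to be made together. In the cornea, fibrils of type I with some type V, laid down by stromal keratocytes, carry the load. Type XII and its relatives, the FACIT collagens, sit on fibril surfaces, and type VI forms beaded filaments between fibrils. Networks of type IV make basement membranes, and type VIII makes the lattice of Descemet's membrane, the basement membrane of the corneal endothelium at the back of the cornea. Type XVII, a transmembrane protein of hemidesmosomes, and type VII, the anchoring fibril, fix the epithelium to the stroma.

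Total counts were 39616004 for PNU-282987, 37692972 for excision and 37703843 for sham, and the corneal keratin gene Krt12 was the most abundant of the epithelial markers in each. Levels are given as CPM, counts scaled to library size, and levels of different genes are compared only as CPM per kilobase of transcript. Each group is 1 library, so the variation among animals is unknown, no test was made, and a fold sets 2 libraries side by side. The 95% interval beside a fold covers counting error only. Higher and lower calls needed a 2-fold difference and an interval clear of 1, and were made for the 14180 genes that reached 20 counts somewhere. Of the collagens, 31 reached that count and 11 did not. Col5a3 and Col9a1 reached it in sham alone, so they could hardly be other than lower elsewhere. Col11a1 and Col14a1 fell short of it only with PNU-282987, and Col9a3 only in sham. The filter likewise favoured calls that put these genes lower in the library where they fell short. In whole corneas, fewer cells of a type and less RNA per cell cannot be told apart.

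Collagen transcript as a whole was less abundant in both other libraries than in sham. The 42 genes summed to 1725 CPM with PNU-282987, 1830 CPM after excision and 2441 CPM in sham, which put PNU-282987 1.42-fold below sham (1.40 to 1.43) and excision 1.33-fold below it (1.32 to 1.35). The sums of the PNU-282987 and excision libraries were close, yet they were made of different collagens. The Descemet class held 14.2% of collagen counts with PNU-282987, 4.16% after excision and 15.7% in sham. The basement membrane class held 6.51% with PNU-282987, 3.34% after excision and 9.53% in sham. The transmembrane class, nearly all Col17a1, went the other way and held 38.4% with PNU-282987, 50.9% after excision and 31.6% in sham. Fibrillar collagens had a share of 24.2% with PNU-282987, 27.0% after excision and 25.2% in sham, and the beaded filament class lay between 8.93% and 9.39% in the 3 libraries. Shares are not levels. The summed fibrillar level was 1.24-fold below sham after excision (1.22 to 1.27) and 1.47-fold below it with PNU-282987 (1.44 to 1.5). The summed transmembrane level was 1.21-fold above sham after excision (1.19 to 1.23) but 1.16-fold below it with PNU-282987 (1.15 to 1.18).

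**Figure D1:**
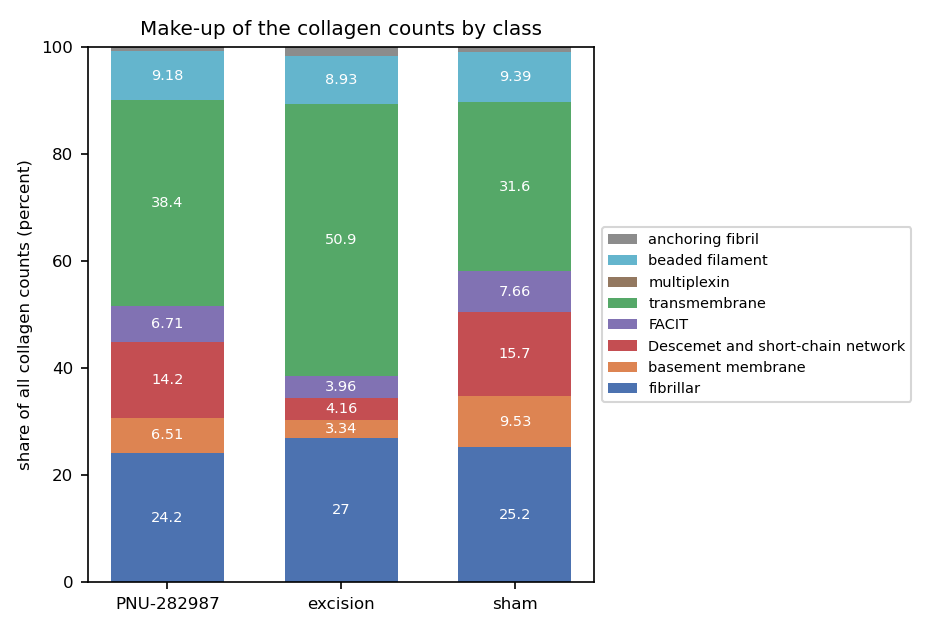
Stacked bars show the share of all collagen counts (percent) taken by each collagen class in the PNU-282987, excision and sham libraries, 1 library each. The Descemet share is 14.2, 4.16 and 15.7 percent and the transmembrane share 38.4, 50.9 and 31.6 percent in that order.

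Per kilobase, Col17a1 was the most abundant collagen transcript in each library, at 117 CPM per kilobase with PNU-282987, 166 after excision and 137 in sham. Behind it the order changed between libraries. Col8a2 came second with PNU-282987 (47.1) and in sham (76.7), but after excision it was below both type I chains, at 15.9 beside 42.4 for Col1a1 and 35.5 for Col1a2. The type VI genes Col6a1 and Col6a2 followed at 13.2 to 18 CPM per kilobase, and no type IV chain was above 7.11 in any library.

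**Figure D2:**
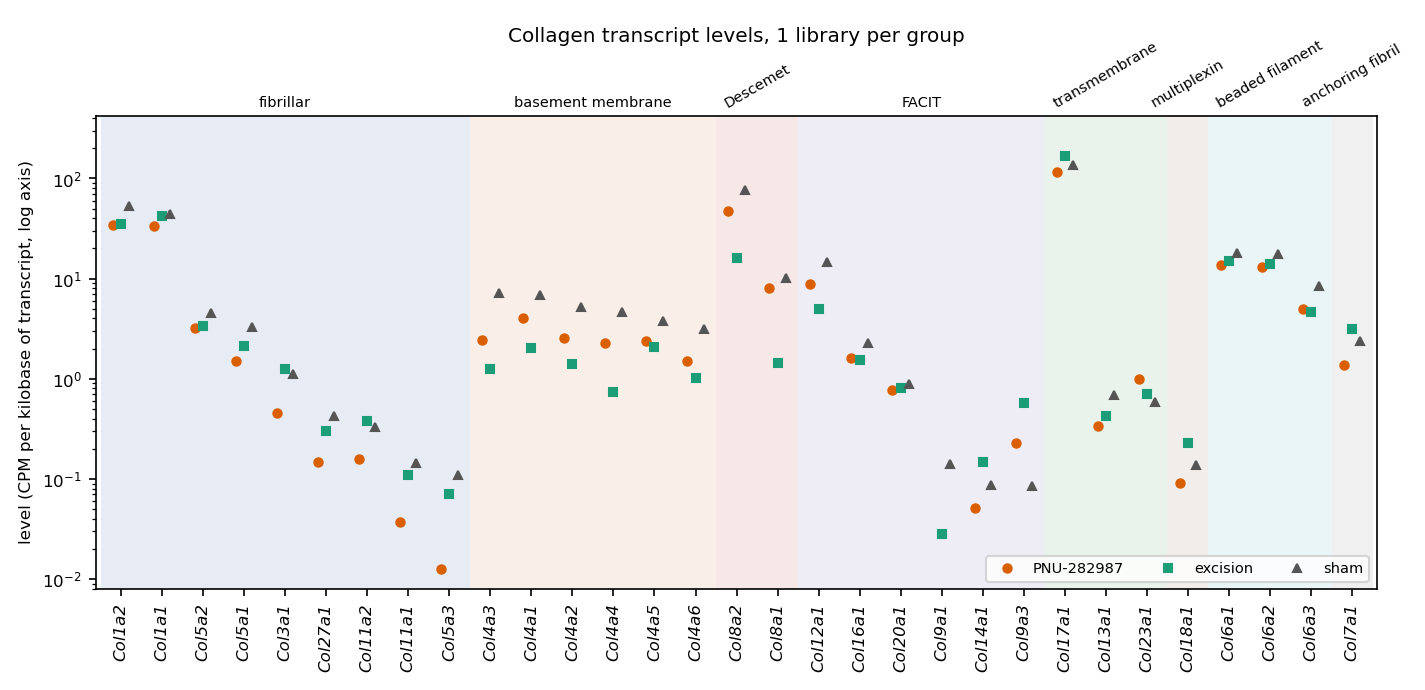
Points give the level of the 31 collagens with at least 20 counts in a library, in CPM per kilobase of transcript on a log axis, grouped by class, for PNU-282987 (circles), excision (squares) and sham (triangles), 1 library each. Col9a1, with 0 counts in the PNU-282987 library, has no circle, and the excision squares of the Descemet and basement membrane genes lie lowest of the 3.

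The comparison of excision with sham asks what differs in a cornea that has lost its tear gland. Excision was lower for the network collagens of Descemet's and basement membranes and for the FACIT gene Col12a1, while type I, III and V fibril chains lay within 2-fold of sham. Of 31 measured collagens, 9 were called lower and 1 higher, or 29.0% and 3.23%, where 5.48% of all tested genes were called lower and 4.01% higher. The 9 are Col8a1, Col8a2, Col4a1, Col4a2, Col4a3, Col4a4, Col4a6, Col12a1 and Col9a1, and the single gene above sham is Col9a3. The median log2 ratio of the measured collagens was -0.58, against -0.00 over all 14170 genes with a ratio.

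PNU-282987 against excision asks what differs between a cornea given the agonist and one after gland loss. Col8a1, Col8a2 and Col4a4 were called higher with PNU-282987, and 9 collagens were called lower, which are 9.68% and 29.0% of the measured members beside 3.9% and 5.62% of all tested genes. The 9 are the fibrillar genes Col3a1, Col5a3, Col11a1, Col11a2 and Col27a1, the FACIT genes Col9a3 and Col14a1, Col18a1 and Col7a1. Of these only Col3a1 and Col7a1 had more than 100 counts in both other libraries. The median log2 ratio of the members was -0.09, against 0.01 over all tested genes.

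PNU-282987 against sham sets the eyedrop cornea beside one with its glands intact. Of the measured collagens 29 of 31 had a ratio below 1, beside 50% of all tested genes. Calls were 12 lower and 1 higher, or 38.7% and 3.23% of the members beside 4.96% and 2.58% of all tested genes. The 12 lower were Col3a1, Col5a1, Col5a3, Col11a1, Col11a2, Col27a1, Col4a2, Col4a3, Col4a4, Col4a6, Col9a1 and Col13a1. Col9a3 was again the gene called higher. Their median log2 ratio was -0.75, against 0.00 over all tested genes. This comparison shares its libraries with the other two, so the 3 sets of calls are not independent.

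**Figure D3:**
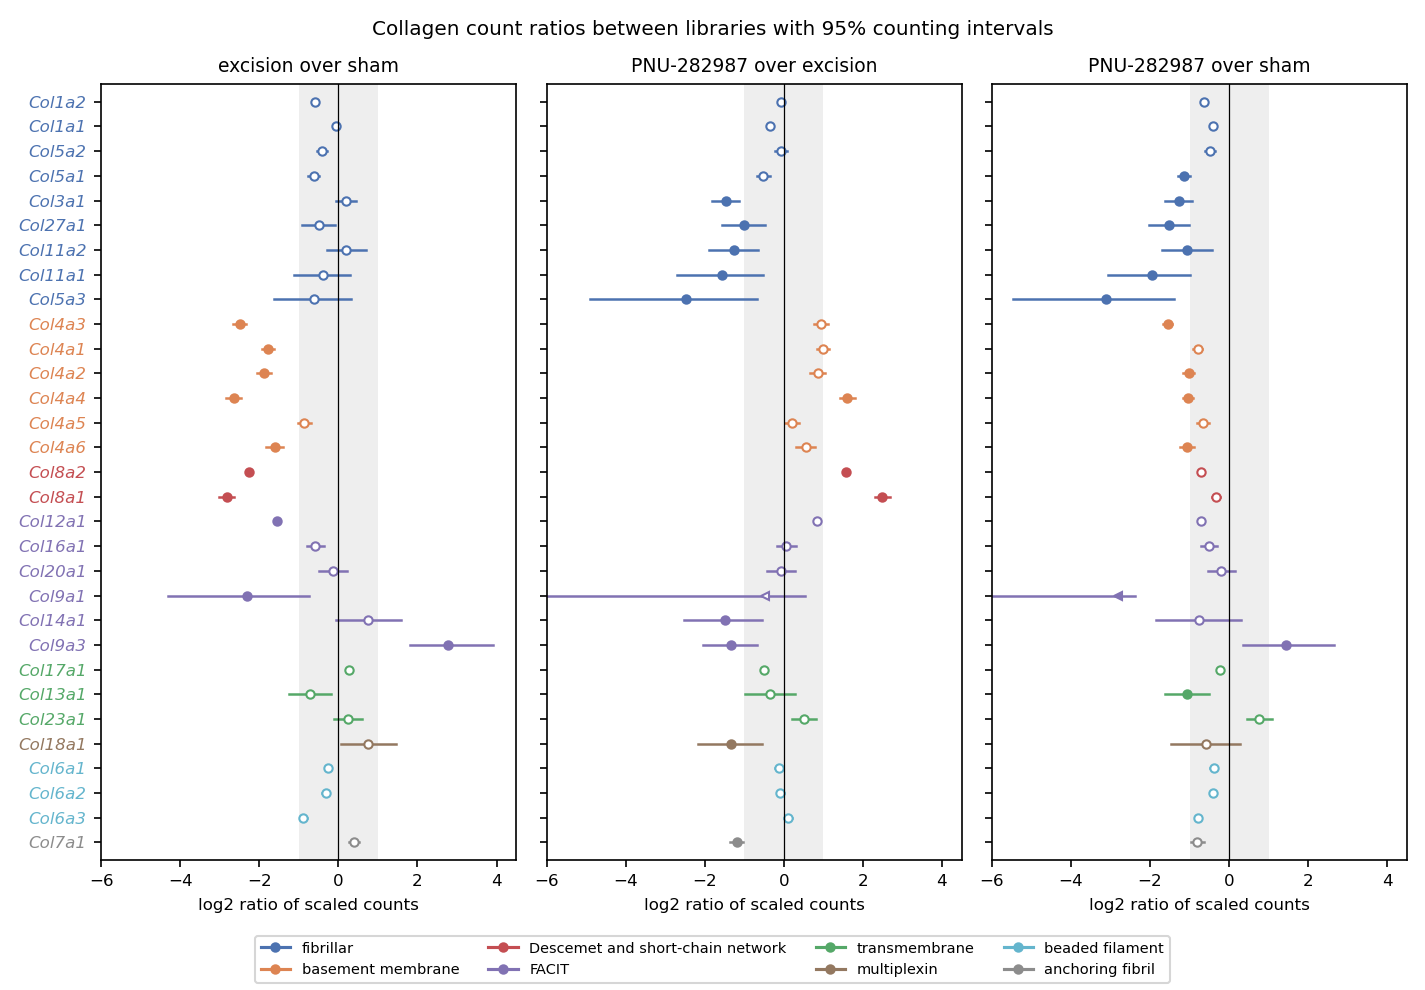
Each panel shows the log2 ratio of scaled counts for the 31 measured collagens in 1 comparison, coloured by class, with its 95% counting interval as a line. The grey band marks ratios within 2-fold, filled points are called and open points are not, and triangles are bounds from a count of 0. In the left panel the Descemet and basement membrane genes lie left of the band apart from Col4a5, and in the middle panel Col8a1, Col8a2 and Col4a4 lie right of it.

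The load-bearing type I chains stayed within 2-fold in all 3 comparisons. Col1a1, which encodes the major type I chain, had 7653 counts with PNU-282987, 9332 after excision and 10154 in sham. Its partner Col1a2 had 7068 counts with PNU-282987, 7046 after excision and 11081 in sham. Excision was thus 1.03-fold below sham for Col1a1 (1.01 to 1.06) and 1.49-fold below it for Col1a2 (1.45 to 1.54). PNU-282987 was 1.32-fold (1.28 to 1.36) and 1.56-fold (1.51 to 1.61) below sham for the 2 genes. For Col1a2 the 2 other libraries nearly coincided under sham, whereas for Col1a1 it was PNU-282987 that stood lowest.

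Type V chains join type I fibrils and limit their width. Col5a1 had 489 counts with PNU-282987, 669 after excision and 1081 in sham, so PNU-282987 was 2.20-fold below sham (1.97 to 2.45) and excision 1.54-fold (1.39 to 1.69). Col5a2 had 827, 830 and 1162 counts in the same order, and PNU-282987 was 1.40-fold below sham (1.28 to 1.53). Both chains were highest in sham, and only Col5a1 passed 2-fold. Col5a3, another type V chain, had 3 counts with PNU-282987, 16 after excision and 26 in sham, too few to place its fold closely (PNU-282987 was 8.62-fold below sham, 2.64 to 44.5, and 5.58-fold below excision, 1.6 to 29.9).

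Col3a1, Col11a1, Col11a2 and Col27a1, chains of scarcer fibrils, had their lowest counts with PNU-282987. Col3a1, which encodes type III, a collagen of pliable connective tissue and of vessel walls, had 99 counts with PNU-282987, 261 after excision and 241 in sham. PNU-282987 was 2.76-fold below excision (2.18 to 3.51) and 2.42-fold below sham (1.91 to 3.09), while excision and sham did not differ beyond counting error (1.14-fold, 0.953 to 1.36). Col11a1 and Col11a2, chains of the type XI collagen of cartilage, were also lowest with PNU-282987. Col11a1 had 11 counts with PNU-282987, 31 after excision and 43 in sham, and Col11a2 had 33, 75 and 69. PNU-282987 was 3.89-fold below sham for Col11a1 (1.97 to 8.36) and 2.08-fold for Col11a2 (1.35 to 3.25), with folds of 2.95 (1.44 to 6.5) and 2.38 (1.56 to 3.7) below excision. Col27a1, a fibrillar collagen of cartilage, had 44 counts with PNU-282987, 85 after excision and 126 in sham. Its PNU-282987 count was 2.02-fold below excision (1.39 to 2.98) and 2.85-fold below sham (2.01 to 4.11). Markers of blood vessels and lymphatics, which also hold type III, summed to 6.21 CPM with PNU-282987, 9.27 after excision and 6.94 in sham. Of 6 measured members 3 were lower with PNU-282987 than after excision, beside 5.62% of all tested genes, and none was called against sham. The 3, Flt4, Lyve1 and Pecam1, reached 20 counts after excision alone, so they could hardly be other than lower elsewhere. Of the 6 ratios of PNU-282987 over excision 4 were below 1, while Kdr was 1.55-fold above excision (1.09 to 2.21). The part of vessels and lymphatics in the Col3a1 difference was not tested.

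The type VI genes of beaded filaments stayed within 2-fold across libraries. Col6a1 had 2178 counts with PNU-282987, 2271 after excision and 2879 in sham, and Col6a2 had 2029, 2063 and 2712. Col6a3, the long chain that completes the filament, had 1942 counts with PNU-282987, 1725 after excision and 3359 in sham. All 3 genes were highest in sham without reaching 2-fold. Col6a3 came nearest, with excision 1.85-fold (1.75 to 1.96) and PNU-282987 1.72-fold (1.63 to 1.82) below sham.

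Among FACIT collagens, Col12a1 dominated the counts. This gene of a fibril-surface collagen of dense connective tissue had 3998 counts with PNU-282987, 2148 after excision and 6612 in sham. Excision was the lowest library, 2.93-fold below sham (2.79 to 3.07), and PNU-282987 lay between them, 1.78-fold above excision (1.69 to 1.88) and 1.64-fold below sham (1.58 to 1.71). Col16a1 had 326 counts with PNU-282987, 297 after excision and 468 in sham, and Col20a1 had 134, 134 and 155. Neither was called in any comparison, and the intervals of Col20a1 all included equal levels. Col14a1, a relative of Col12a1, had 13 counts with PNU-282987, 35 after excision and 22 in sham, and PNU-282987 was 2.82-fold below excision (1.45 to 5.8).

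The chains of type IX, a cartilage and vitreous collagen, did not move together. Col9a3 had 27 counts with PNU-282987, 65 after excision and 10 in sham. It was the only collagen with a called excess over sham, at 6.84-fold after excision (3.49 to 14.9) and 2.72-fold with PNU-282987 (1.27 to 6.29). PNU-282987 was also 2.52-fold below excision (1.59 to 4.1). Its partner chains had their highest counts in sham. Col9a1 had 0 counts with PNU-282987, 4 after excision and 21 in sham, at least 6.96-fold lower with PNU-282987 than in sham against a floor of 3 counts per library. After excision it was 4.99-fold lower than sham (1.68 to 20). Col9a2 had 0, 5 and 9 counts and stayed below the minimum.

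Type IV basement membrane chains formed the largest block of genes called lower after excision. Summed over 6 genes their level was 112 CPM with PNU-282987, 61.0 after excision and 233 in sham, which is 3.81-fold lower after excision than in sham (3.64 to 3.99). PNU-282987 was 1.84-fold above excision (1.75 to 1.94) and 2.07-fold below sham (2 to 2.15). Each of the 6 genes had its lowest count after excision and its highest in sham. The genes lie in head-to-head pairs, and each pair makes partner chains.

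Col4a3 and Col4a4, whose chains join that of Col4a5 in the kidney filter and in parts of the eye, were the type IV genes furthest below sham after excision. Col4a3 had 803 counts with PNU-282987, 399 after excision and 2375 in sham, so excision was 5.66-fold below sham (5.09 to 6.31). Col4a4 had 891 counts with PNU-282987, 279 after excision and 1840 in sham, a 6.27-fold difference (5.52 to 7.14). For PNU-282987 over excision only Col4a4 passed 2-fold, at 3.05-fold (2.67 to 3.50), while Col4a3 reached 1.92-fold (1.70 to 2.17). PNU-282987 was 2.94-fold below sham for Col4a3 (2.71 to 3.19) and 2.05-fold for Col4a4 (1.89 to 2.23).

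The start sites of these 2 genes point away from each other on chromosome 1, with 71 bases between them by the GENCODE M21 annotation. The stretch is shown because both genes start from its ends and both were lowest after excision. It runs over chr1:82586850-82586920 in GRCm38.p6 and is written on the minus strand, 5′ to 3′ towards Col4a4, from the RefSeq promoter table.
Col4a4 and Col4a3: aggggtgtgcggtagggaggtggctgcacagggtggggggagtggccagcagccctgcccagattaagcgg
It is 69.0% G and C. Of the 3 motifs searched on both strands it holds neither the TATA box, spelled TATAAA, nor the CCAAT box, spelled CCAAT, nor the GC box, spelled GGGCGG. In the 71 bases before the start, 4.41% of the 32851 RefSeq promoter windows hold the TATA box, 13.3% the CCAAT box and 20.7% the GC box.

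Col4a1 and Col4a2, the chains found in nearly all basement membranes, were lower after excision than in sham, by a smaller fold. Col4a1 had 1028 counts with PNU-282987, 494 after excision and 1788 in sham, and excision was 3.44-fold below sham (3.11 to 3.81). Col4a2 had 641, 338 and 1311 counts in the same order and was 3.69-fold lower (3.27 to 4.17). Both were above excision in the PNU-282987 library without being called, Col4a1 by 1.99-fold (1.79 to 2.22) and Col4a2 by 1.81-fold (1.59 to 2.07). Their starts overlap on chromosome 8 in the annotation.

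The X-linked pair was split. Col4a6 had 388 counts with PNU-282987, 253 after excision and 814 in sham, and excision was 3.06-fold below sham (2.65 to 3.54). Col4a5 had 608 counts with PNU-282987, 503 after excision and 962 in sham, and at 1.82-fold (1.63 to 2.03) was the type IV gene nearest to sham. The starts of Col4a6 and Col4a5 are 1308 bases apart, further than those of the other pairs.

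Both collagens of Descemet's membrane were far lower after excision than in the other libraries. Col8a2 had 7930 counts with PNU-282987, 2555 after excision and 12972 in sham. Col8a1 had 1603 counts with PNU-282987, 272 after excision and 2028 in sham. Excision was below sham by 4.83-fold for Col8a2 (4.63 to 5.04) and by 7.09-fold for Col8a1 (6.24 to 8.07). PNU-282987 was 2.97-fold above excision for Col8a2 (2.84 to 3.10) and 5.63-fold above it for Col8a1 (4.95 to 6.43). Against sham it was 1.63-fold lower for Col8a2 (1.58 to 1.67) and 1.26-fold lower for Col8a1 (1.18 to 1.34), neither of them called. Col10a1, the remaining short-chain network collagen and a product of cartilage that turns to bone, had 0, 1 and 0 counts.

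The bases before the Col8a1 and Col8a2 starts are shown because these genes lie on different chromosomes and had the same order of levels in the 3 libraries. Both stretches come from the RefSeq promoter table on GRCm38.p6, trimmed to bases outside annotated exons, and run 5′ to 3′ towards the gene. Capitals mark GC boxes, spelled GGGCGG, or CCGCCC where the box is on the opposite strand. The Col8a1 stretch covers chr16:57754738-57754987 on the minus strand and the Col8a2 stretch chr4:126286544-126286792 on the plus strand.
Col8a1: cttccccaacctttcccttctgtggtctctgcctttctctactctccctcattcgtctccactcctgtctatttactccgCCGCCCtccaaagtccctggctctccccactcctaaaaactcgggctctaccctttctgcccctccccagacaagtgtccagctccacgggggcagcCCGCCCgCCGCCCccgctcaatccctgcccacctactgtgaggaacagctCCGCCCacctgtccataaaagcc
Col8a2: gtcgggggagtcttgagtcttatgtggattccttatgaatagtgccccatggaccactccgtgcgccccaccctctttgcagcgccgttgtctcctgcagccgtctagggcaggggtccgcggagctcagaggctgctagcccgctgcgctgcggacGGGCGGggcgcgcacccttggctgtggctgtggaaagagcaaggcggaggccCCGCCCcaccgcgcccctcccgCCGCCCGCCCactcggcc
Each stretch holds 4 GC boxes, a pair of which overlap in Col8a2, and neither holds a TATA or CCAAT box. A GC box is in 32.7% of all RefSeq promoter windows over the same 250 bases and in 21 of the 37 windows of collagen genes too. Of the 42 collagens, 34 had a window in the table.

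Col17a1, the transmembrane collagen of epithelial basal cells, had 25435 counts with PNU-282987, 34402 after excision and 29875 in sham. It was highest after excision, 1.21-fold above sham (1.19 to 1.23), and PNU-282987 was 1.41-fold below excision (1.39 to 1.44) and 1.17-fold below sham (1.15 to 1.19). All of these lie well within 2-fold. Markers of corneal epithelium summed to 72461 CPM with PNU-282987, 58661 after excision and 62731 in sham, of which the keratin gene Krt12 gave 58.1%, 52.1% and 62.9% in the same order. Over the 11 measured members the median log2 ratio of excision over sham was 0.23, beside 0.28 for Col17a1, with 3 ratios below 1, 1 member called higher and none lower. For PNU-282987 over excision the median of these markers was 0.02, beside -0.50 for Col17a1. For PNU-282987 over sham it was 0.16, beside -0.22 for Col17a1. The part of the epithelium in the Col17a1 difference was not tested.

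The promoter stretch of Col17a1 is shown as a contrast to the type VIII genes, since it comes from the most abundant collagen gene and holds another motif. It covers chr19:47692095-47692292 on the minus strand of GRCm38.p6, again from the RefSeq table and outside annotated exons, and capitals mark TATAAA.
Col17a1: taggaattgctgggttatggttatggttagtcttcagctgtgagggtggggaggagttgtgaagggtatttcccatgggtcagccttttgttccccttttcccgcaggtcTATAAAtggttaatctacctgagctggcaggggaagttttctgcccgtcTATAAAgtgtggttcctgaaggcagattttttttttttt
These 198 bases are 45.5% G and C and hold 2 copies of TATAAA, with no GC box. Over the same 198 bases, the TATA box is in 9.9% of all promoter windows and in 4 of the 37 collagen windows.

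Other collagens of the epithelial anchor and of cell surfaces were less abundant. Col7a1, the anchoring fibril gene, had 490 counts with PNU-282987, 1071 after excision and 858 in sham. PNU-282987 was 2.29-fold below excision (2.05 to 2.55) and 1.74-fold below sham (1.56 to 1.95), and excision was 1.31-fold above sham (1.2 to 1.44). Col17a1 and Col7a1, which act at the same junction, thus had the same order of libraries. Col3a1, Col11a2, Col14a1 and Col18a1 had this order too. Col23a1, a transmembrane collagen, had 219 counts with PNU-282987, 147 after excision and 130 in sham, and was with Col9a3 the only one of the 31 measured members with a ratio of PNU-282987 over sham above 1 (1.69-fold, 1.36 to 2.12). Col13a1, a transmembrane collagen of cell contacts, had 41, 50 and 86 counts in the same order and was 2.09-fold lower with PNU-282987 than in sham (1.42 to 3.10). Col18a1, a basement membrane collagen whose end fragment is endostatin, had 20 counts with PNU-282987, 48 after excision and 30 in sham, and PNU-282987 was 2.51-fold below excision (1.46 to 4.47).

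The 11 genes below the minimum count had at most 15 counts in any library. Col24a1 had 9 counts with PNU-282987, 15 after excision and 12 in sham, the most of these 11. Col15a1 had 1, 5 and 9 counts, Col25a1 had 0, 4 and 7, and Col28a1 had 5, 1 and 4. Col2a1, the main collagen of cartilage and vitreous, had 0, 2 and 0 counts, and Col6a6 had 2, 5 and 0. Col6a4, Col19a1 and Col26a1 had at most 2 counts in any library. The floor of 3 counts that a 0 leaves possible equals 0.0773 CPM with PNU-282987, 0.0808 after excision and 0.0768 in sham, so these genes were not detectable at this depth or barely so.

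Because partner chains are counted in the same library, their balance needs no scaling between libraries. The share of Col6a1 in the counts of Col6a1 and Col6a2 was 51.8% with PNU-282987 (50.2 to 53.3, exact binomial interval), 52.4% after excision (50.9 to 53.9) and 51.5% in sham (50.2 to 52.8). This pair kept its balance within counting error in all 3 comparisons. So did Col4a1 and Col4a2 between excision and sham, where Col4a1 held 59.4% (55.9 to 62.7) and 57.7% (55.9 to 59.4), and Col4a3 and Col4a4, where Col4a3 held 58.8% (55 to 62.6) and 56.3% (54.8 to 57.9). The intervals for the change of these 2 ratios, excision over sham, ran 0.915 to 1.26 for Col4a1 to Col4a2 and 0.937 to 1.31 for Col4a3 to Col4a4.

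Other pairs shifted beyond counting error. The ratio of Col6a3 to Col6a2 did so in all 3 comparisons, at 0.675 times sham after excision (0.622 to 0.733), 1.14 times excision with PNU-282987 (1.05 to 1.25) and 0.773 times sham with PNU-282987 (0.713 to 0.838). The ratio of Col4a1 to Col4a2 with PNU-282987 was 1.18 times that in sham (1.04 to 1.33). Col1a1 held 52.0% of the type I counts with PNU-282987 (51.2 to 52.8), 57.0% after excision (56.2 to 57.7) and 47.8% in sham (47.1 to 48.5). The Col1a1 to Col1a2 ratio after excision was 1.45 times that in sham (1.39 to 1.51). Col8a1 held 16.8% of the type VIII counts with PNU-282987 (16.1 to 17.6), 9.62% after excision (8.56 to 10.8) and 13.5% in sham (13 to 14.1). That ratio was 1.90 times higher with PNU-282987 than after excision (1.66 to 2.18). Col4a3 held 47.4% of its pair with PNU-282987 (45 to 49.8), below both other libraries, and Col5a1 held 37.2% of its pair with PNU-282987 (34.5 to 39.8), 44.6% after excision (42.1 to 47.2) and 48.2% in sham (46.1 to 50.3). Col4a5 held 61.0% with PNU-282987 (57.9 to 64.1), 66.5% after excision (63.0 to 69.9) and 54.2% in sham (51.8 to 56.5). How far such ratios vary between animals was not measured.

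**Figure D4:**
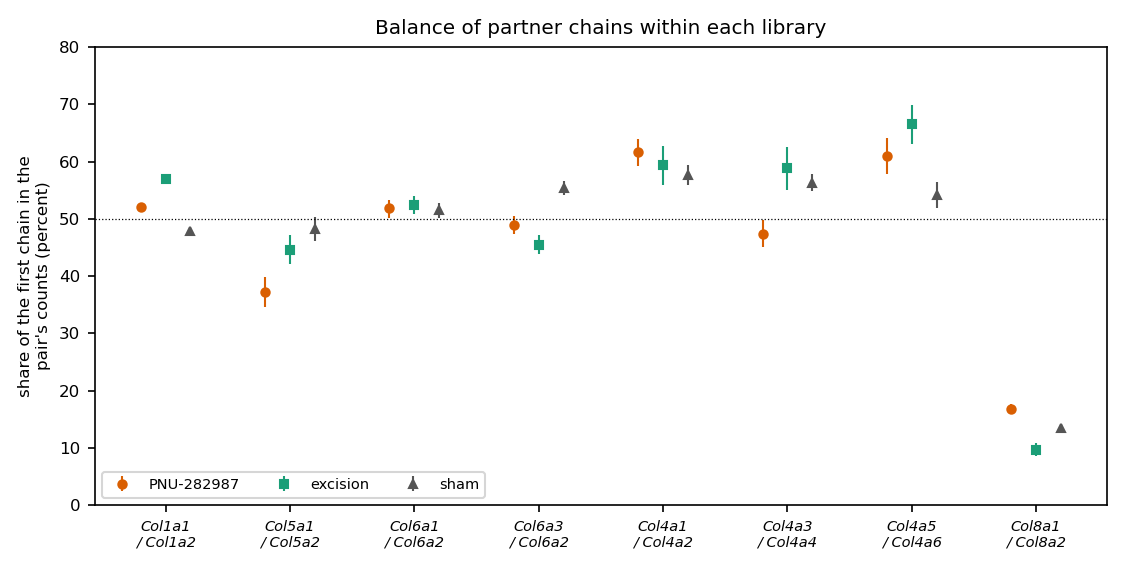
For 8 pairs of partner chains, points give the share (percent) of the first-named gene in the counts of the pair with its 95% exact binomial interval, for PNU-282987, excision and sham, 1 library each. Col6a1 with Col6a2 is level at 51.5 to 52.4 percent, and Col1a1 with Col1a2 is spread, at 57.0 percent after excision and 47.8 percent in sham.

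Several enzymes that modify and crosslink collagen were lower after excision as well. Of 54 genes that build, bind or cut collagen, in 5 lists, 44 were measured. After excision 9 were called lower than sham and none higher, beside 5.48% and 4.01% of all tested genes. PNU-282987 had 3 called above excision and none below it, beside 3.9% and 5.62% of all tested genes, and against sham 1 above and 4 below, beside 2.58% and 4.96%. Adamts3 and Tll2, counted as lower than sham in both other libraries, reached 20 counts in sham alone. For chain hydroxylation and folding, 5 of 19 measured genes were lower after excision than in sham and none higher (median log2 ratio -0.50). Plod2, a lysyl hydroxylase, had 72 counts with PNU-282987, 24 after excision and 107 in sham, which is 4.24-fold lower after excision than in sham (2.70 to 6.90). P3h1, a prolyl 3-hydroxylase, was 3.08-fold lower (2.26 to 4.28), P4ha1, a catalytic subunit of prolyl 4-hydroxylase, 2.63-fold (2.32 to 3.00) and Fkbp14, a folding enzyme, 2.42-fold (1.94 to 3.02). Plod2 and Creb3l1, a transcription factor of collagen-secreting cells, were the 2 genes of this list called higher with PNU-282987 than after excision, at 2.87-fold (1.78 to 4.76) and 2.68-fold (1.67 to 4.41).

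Of 11 measured genes for secretion and propeptide removal, 2 were lower after excision than in sham. For this list and those below, 5.48% of all tested genes were called lower and 4.01% higher for excision over sham. Adamts3, a procollagen N-proteinase, had 17 counts with PNU-282987, 4 after excision and 55 in sham (13.1-fold lower after excision than in sham, 4.82 to 49.7), and Tll2, a tolloid-like protease, had 11, 13 and 49. Both of these proteases reached 20 counts in sham alone, so they could hardly be other than lower elsewhere. Of 5 measured crosslinking genes 2 were lower after excision than in sham, both of them lysyl oxidase-like. Loxl2 had 86 counts with PNU-282987, 91 after excision and 326 in sham, and Loxl1 had 460, 316 and 687. After excision they were 3.41-fold (2.69 to 4.34) and 2.07-fold (1.81 to 2.37) below sham. None of the 6 measured collagen receptor genes and none of the 3 measured cleavage genes was called after excision against sham, and Itga11, a collagen-binding integrin chain, was lower with PNU-282987 than in sham (31 and 81 counts, 2.60-fold, 1.70 to 4.07).

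Markers of the cells and tissues that make these collagens differed between the libraries too. Their counts of calls stand beside the same shares of all tested genes, 5.48% lower and 4.01% higher for excision over sham, 5.62% and 3.9% for PNU-282987 over excision, and 4.96% and 2.58% for PNU-282987 over sham. Of 12 measured corneal endothelium markers, 9 were lower and 1 higher after excision than in sham (median log2 ratio -1.80), and 7 were higher and none lower with PNU-282987 than after excision (1.08). The list summed to 865 CPM with PNU-282987, 625 after excision and 1149 in sham. Slc4a11, a transporter of the corneal endothelium, had 2379 counts with PNU-282987, 1577 after excision and 6183 in sham, and Cldn11 was the only member at 0, in the PNU-282987 library. Of 15 measured lens markers, 14 were lower after excision than in sham (median -5.44), 14 were higher with PNU-282987 than after excision (5.21), and 1 was lower with PNU-282987 than in sham. The list summed to 792 CPM with PNU-282987, 170 after excision and 854 in sham, with Mip and Birc7 at 0 after excision. Cryab gave 27.9% of the lens sum with PNU-282987, 86.8% after excision and 25.7% in sham, and was 1.49-fold lower after excision than in sham. The lens capsule is a thick basement membrane that also holds type IV collagen. The retina list summed to 33.4 CPM with PNU-282987, 7.38 after excision and 21.4 in sham, and 7 of 8 measured members were lower after excision than in sham. The part of these tissues in the type IV and type VIII differences was not tested.

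Keratocyte markers, for the cells that make the fibrils, had 6 of 13 measured members lower and none higher after excision than in sham (median -0.81), and 4 higher with PNU-282987 than after excision (0.39). Their sum was 20293 CPM with PNU-282987, 18561 after excision and 18893 in sham, but Aldh3a1, which the epithelium also makes, gave 91.1% to 94.5% of it. Kera, a keratan sulfate proteoglycan of the stroma, had 3716 counts with PNU-282987, 3217 after excision and 7395 in sham. Red blood cell markers summed to 9.61 CPM with PNU-282987, 17.2 after excision and 71.8 in sham, highest in sham. Of 5 measured members, 4 were lower than sham after excision, 4 were lower than sham with PNU-282987, and 3 were lower with PNU-282987 than after excision. Alas2, called in no comparison, had 274 counts with PNU-282987, 214 after excision and 399 in sham, while the globin gene Hbb-bs had 32, 224 and 1291. Myofibroblast markers, from cells that lay down scar collagen, summed to 122 CPM with PNU-282987, 173 after excision and 182 in sham, but the fibronectin gene Fn1 gave 73.6% to 86.7% of each sum. Over the list, the median log2 ratio was 0.03 for PNU-282987 over excision and -0.62 for excision over sham, with 2 of 7 measured members lower and 1 higher after excision than in sham. Schwann cell markers, whose cells also make basement membrane, summed to 274, 261 and 249 CPM in the same order, 68.4% to 81.9% of it Mbp, with 1 of 5 measured members lower after excision than in sham. Skeletal muscle markers stayed at 2.13 to 3.48 CPM. The conjunctiva and gland list, 78.9% to 89.2% of it Krt13, summed to 5857 CPM with PNU-282987, 3799 after excision and 2268 in sham. Of 10 measured members 9 were higher with PNU-282987 than in sham and 4 higher after excision than in sham. Among the 9, Gp2, Muc5ac, Muc5b and Scgb2b2 reached 20 counts with PNU-282987 alone, so they could hardly be other than higher there. Muc5ac, also among the 4, had 11 counts after excision and 1 in sham. Whether any of these lists accounts for a collagen difference was not tested.

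**Figure D5:**
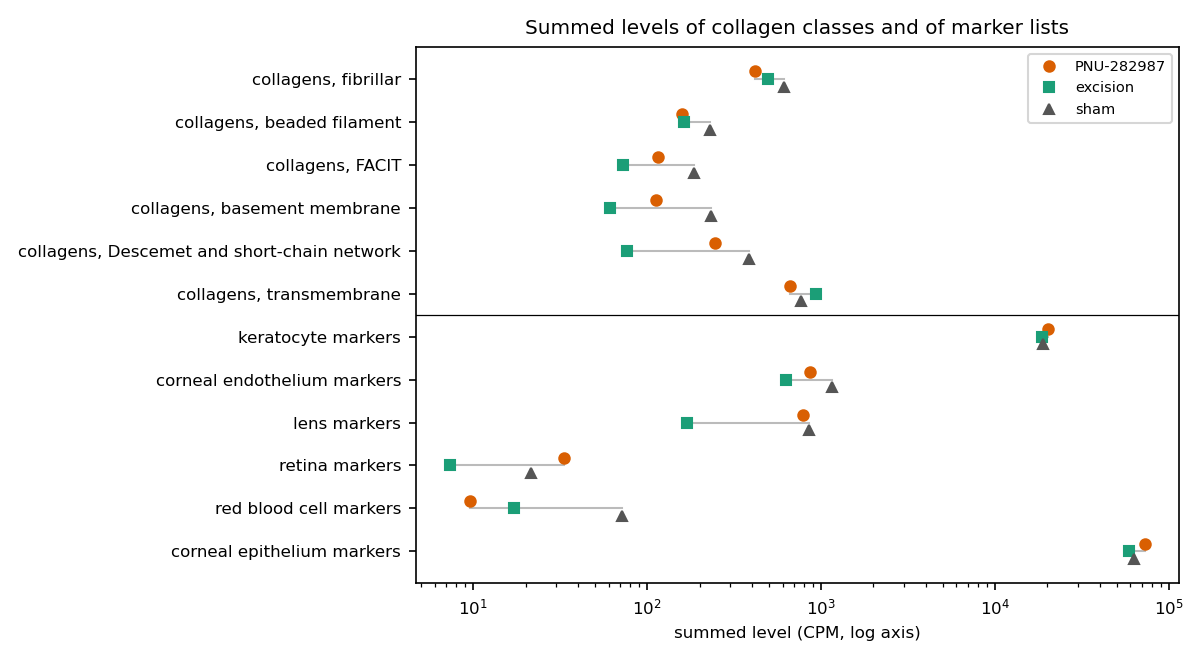
Points give the summed level (CPM, log axis) of 6 collagen classes, above the line, and of 6 marker lists, below it, for PNU-282987, excision and sham, 1 library each. The Descemet, basement membrane and FACIT collagens and the endothelium, lens and retina lists are each lowest after excision.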

How the data were processed

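What the authors deposited is a gene table with whole-number read counts for 3 cornea libraries. HTSeq and R 3.2.0 are named in the submitters' processing notes. TRIzol extraction and a VAHTS Universal V6 library kit are stated in the labels' protocols. For aligner, build, annotation and strand setting the entry is "not given in the sources used here", and overlapping genes may share reads. Columns were matched to samples by title.

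TMM factors were computed with edgeR 4.0.16 under R 4.3.3 and were 0.980 for PNU-282987, 0.985 for excision and 1.04 for sham. Ratios used scaled counts without a pseudocount. A 0 was replaced by 3 counts per library, and no ratio was given where both counts were 3 or fewer. Intervals on ratios were exact conditional binomial (Clopper-Pearson) ones from SciPy 1.17.1, and shares carry exact binomial intervals. The ratio scheme was tested on simulated data, drawn from the sham counts with counting error only. That simulation could not show how the scheme fares with spread between animals. Without molecular identifiers, reads may be copies of 1 molecule, so intervals and floors cover counting error only. Lengths are those of the GENCODE M21 transcript with the longest coding sequence, and promoters are from RefSeq. Every collagen is named, and of each list of related genes at most the 4 called genes with the largest ratio. Collagens and lists were chosen with earlier results of these data known. Other scalings, thresholds and count minimums were tried.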

Additional observations from a re-analysis of the deposited data

How the results depend on the processing

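No scaling changed a call: with library totals or DESeq2 1.42.0 size factors all 93 collagen ratios kept their direction where called and their side of the threshold, and the counts for related genes held with library totals. A 1.5-fold threshold added 17 calls. It gave 13 collagens lower and 2 higher for excision over sham, 7 higher for PNU-282987 over excision, and 19 lower and 2 higher for PNU-282987 over sham, in place of 9, 1, 3, 12 and 1. With no filter on low counts, 15 were lower for PNU-282987 over sham in place of 12. A minimum of 100 counts left 0 higher for excision over sham, 3 lower for PNU-282987 over excision, and 7 lower and 0 higher for PNU-282987 over sham, in place of 1, 9, 12 and 1, because fewer genes were tested. Per kilobase of transcript, class shares for PNU-282987, excision and sham were 4.94%, 2.63% and 7.20% for basement membrane, 18%, 5.36% and 20.3% for Descemet, and 3.78%, 2.52% and 4.28% for FACIT collagens. The fibrillar share was 23.7% with PNU-282987 and 26.4% after excision, and the transmembrane share 51.6% after excision and 32.3% in sham. Lengths cancel in the partner ratios.

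No paired analysis was possible because each group has 1 library. For the same reason no library was left out in turn, and the spread between animals was not measured.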
